A study of Mus musculus with 54 samples.

Results

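Fc receptors bind the constant part of antibodies and couple antibody-coated material to the cell that meets it. The genes described here are Fcgr1, Fcgr3 and Fcgr4 (the ligand-binding chains of the activating IgG receptors), Fcer1g (the signalling chain these receptors share), Fcgr2b (the inhibitory IgG receptor), Fcgrt (the heavy chain of the neonatal Fc receptor) and Fcrls, an Fc receptor-like gene. They were taken by symbol, and all 7 are among the 43280 symbols of each table. The values come from 54 single mouse lung cells, each with the label interstitial macrophage, a macrophage that sits in the tissue around the airways, vessels and air sacs. Smart-seq2, with small changes, turned the RNA of each cell into full-length cDNA, and its libraries were read from both ends for 51 cycles.

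The labels give no animal, strain, age, sex, treatment, sort gate or plate, and all cells share 1 label. The cells therefore count as 1 sample, no test between groups was possible, and the intervals below cover counting error only. Levels are in TPM, a transcript share that is scaled for length, so genes can be compared with one another. Depth cannot be read from TPM, and a value of 0 may be a transcript that was missed. A count of 0 among 54, 31 or 23 cells allows a share of up to 5.56%, 9.68% or 13.04%. A gene is called present in a cell at 10 TPM or more.

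A mouse activating IgG receptor has no classical signalling motif of its own in its ligand-binding chain and relies on the tyrosine-based activation motif (ITAM) of the Fcer1g chain. Fcgr2b carries a tyrosine-based inhibition motif (ITIM) in its own tail and damps the same signal when both receptors are engaged together. The neonatal receptor pairs with beta-2-microglobulin and returns IgG and albumin from endosomes to the cell surface. Fcrls encodes a relative of these receptors with a scavenger receptor domain and is known as a marker of microglia, the macrophages of the brain.

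The coding stretches below come from the first-numbered GENCODE M21 transcript of each gene, 5′ to 3′, and show what sets the activating and inhibitory genes apart. In the ITAM of Fcer1g and the ITIM of Fcgr2b, the capitals mark the tyrosine codons. The ITAM spans bases 193 to 237 of a coding sequence of 258 bases, and the ITIM bases 949 to 966 of 1020, both counted from the start codon.
Fcer1g ITAM: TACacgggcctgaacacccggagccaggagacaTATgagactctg
Fcgr2b ITIM: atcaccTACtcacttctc
The ITAM pattern (tyrosine, a pair of any residues, leucine or isoleucine, a spacer of 6 to 8 residues and the same again) was found in Fcer1g alone among the 7 coding sequences. The ITIM pattern (isoleucine, leucine, valine or serine, any residue, tyrosine, a pair of any residues, then isoleucine, leucine or valine) is shorter. It also matched 3 times in Fcgr1 and once each in Fcgr4, Fcer1g and Fcgrt, so these letters alone do not mark a working motif.

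Fcgr2b and Fcgr3 are close copies in the part that binds IgG, which bears on their values here. Their aligned coding bases were 92.1% identical, and the longest identical run was 129 bases, shown because a read of 51 bases that falls within it matches both genes and is told apart by its mate at most.
Shared by Fcgr2b and Fcgr3: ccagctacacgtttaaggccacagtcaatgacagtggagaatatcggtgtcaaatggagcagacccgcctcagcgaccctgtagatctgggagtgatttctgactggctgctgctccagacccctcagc
Of the 751 stretches of 51 bases in the Fcgr3 coding sequence, 163 (21.7%) occur in Fcgr2b transcripts. No such stretch was shared between any other pair of the 7 genes, Fcgr4 included. Fcgr2b, Fcgr4, Fcgr3 and Fcer1g follow one another in this order along chromosome 1 of the RefSeq annotation, Fcrls and Fcgr1 are on chromosome 3, and Fcgrt is on chromosome 7.

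Cells were described in 2 ranges of a score, the mean log2(TPM + 1) of Prg4, Alox15 and Fn1, genes known from macrophages of the serous cavities. The score was 7 or more in 23 cells and under 7 in 31. The ranges are a division of a measured score and not labelled groups. Most cells lay far from the division: 29 cells were at or under 1.93 and 21 at or over 11.47. The 4 cells between were cells 1 and 29 (4.86 and 5.34) and cells 20 and 31 (7.31 for cell 31 and 7.76 for cell 20). Cell numbers follow the order of deposit.

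The macrophage label held for nearly all cells: at least 7 of 10 identity genes reached 10 TPM in every cell but cells 29, 36 and 40. The least often present of them was Mertk, in 12 cells. The mean log2 level of that list was 7.96 to 10.7 in the 23 cells and 3.53 to 10.9 in the 31. Cells 31 and 40 each had 6 of 10 alveolar macrophage markers at 10 TPM or more, and cell 36 had 4 of 6 NK or T cell markers and 4 of 8 monocyte markers. Cells 36 and 40 had 3 of the 10 identity genes at that level and cell 29 had 5, while cell 31 had all 10. All 6 mast cell and basophil markers were at 0 in every cell, and the 3 B cell and 4 fibroblast markers never reached 10 TPM. Of the neutrophil, dendritic cell and endothelial lists, 3 of 7, 2 of 5 and 1 of 4 genes reached 10 TPM in some cell, and no cell held 3 of any one of these lists. The mean log2 level of 10 serous cavity macrophage markers was 0.00 to 5.22 in the 23 cells and 0.00 to 1.88 in the 31. Genes above 0 per cell had medians of 2889 in the 23 cells and 2626 in the 31 cells. Genes at 10 TPM or more per cell had medians of 1877 and 1413. Lyz2, the lysozyme gene, took 14.8% of the TPM in the median of the 23 cells and 2.62% in that of the 31. Since TPM are shares of a whole, differences are also given below with Lyz2 and the mitochondrial genes taken out of that whole.

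**Figure D1:**
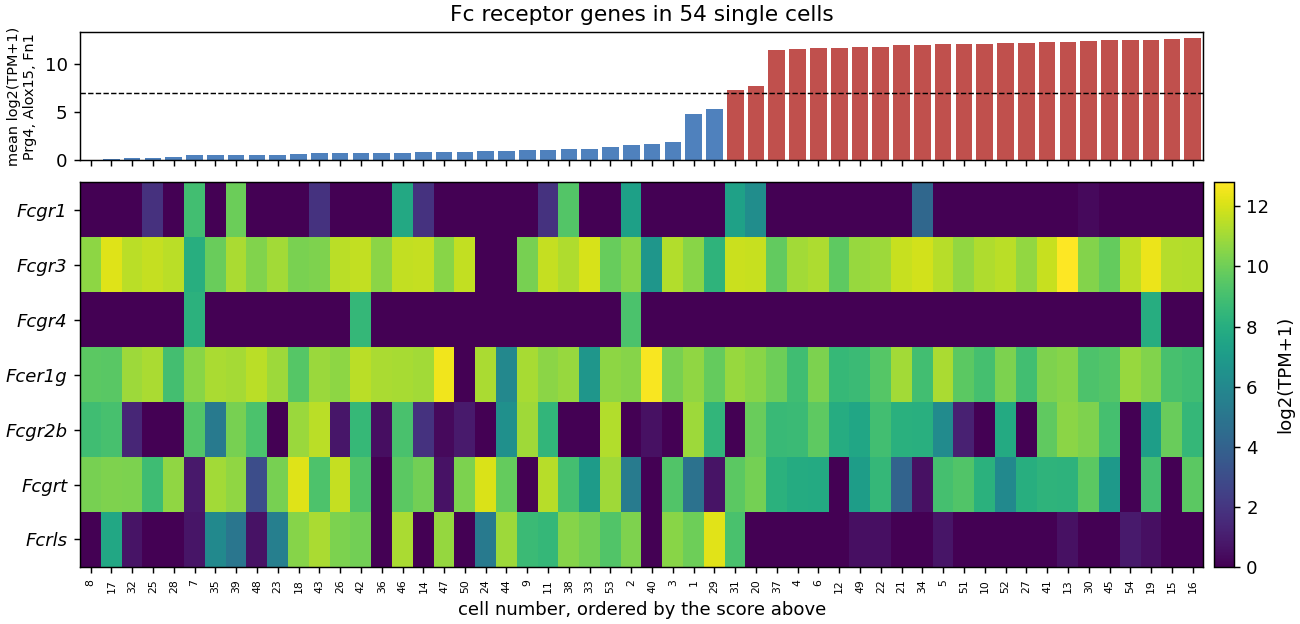
Upper panel: the score, mean log2(TPM+1) of Prg4, Alox15 and Fn1, of each cell, with the division at 7 as a dashed line (blue under 7, red at 7 or more). Lower panel: log2(TPM+1) of the 7 genes in the same 54 cells. Fcgr3 and Fcer1g fill almost every column, Fcgr1 and Fcgr4 few, and Fcrls stops at cell 31.

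Fcgr3 and Fcer1g were present in nearly every cell. Fcgr3, the low-affinity activating receptor for IgG complexes, reached 10 TPM in 52 of 54 cells, or 96.3% (95% exact binomial interval 87.3 to 99.6%). Its level ran from 0 to 7128 TPM with a median of 2328 TPM. Both cells listed at 0 for Fcgr3, cells 24 and 44, were under 7 in score. Fcer1g reached 10 TPM in 53 of 54 cells, or 98.1% (90.1 to 99.95%), with a median of 1406 TPM and a highest value of 6475 TPM in cell 40. The 1 cell without it, cell 50, had Fcgr3 at 3161 TPM. An activating receptor and Fcer1g were present together in 51 of 54 cells.

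Fcgr1, the high-affinity IgG receptor that is widely used as a macrophage marker, was present in 8 of 54 cells, or 14.8% (6.62 to 27.1%). Its values were 987 TPM in cell 39, 655 in cell 38, 481 in cell 7, 208 in cell 46, 159 in cell 31, 151 in cell 2, 75.7 in cell 20 and 18.1 in cell 34. A further 5 cells had values above 0, none over 2.73 TPM. All 8 cells also had Fcgr3 and Fcer1g at 10 TPM or more. Fcgr4, an activating receptor for IgG2a and IgG2b, was present in 4 of 54 cells, or 7.41% (2.06 to 17.9%). Those were cell 2 at 576 TPM, cell 42 at 362, cell 7 at 293 and cell 19 at 247, and every other cell was listed at 0. Cells 2 and 7 had Fcgr1, Fcgr3 and Fcgr4 together.

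Fcgr2b, the inhibitory receptor, was present in 34 of 54 cells, or 63.0% (48.7 to 75.7%). Its values fell into a high and a low range: the 34 cells lay between 38.1 and 2816 TPM with a median of 501 TPM, and the other 20 cells did not exceed 2.62 TPM. Fcgrt was present in 43 cells, or 79.6% (66.5 to 89.4%), with a median of 647 TPM where present and a highest value of 4574 TPM in cell 18. Fcrls was present in 22 cells, or 40.7% (27.6 to 55.0%). Where present, Fcrls ran from 31.7 to 4732 TPM with a median of 1082 TPM, and the other 32 cells did not exceed 0.87 TPM.

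**Figure D2:**
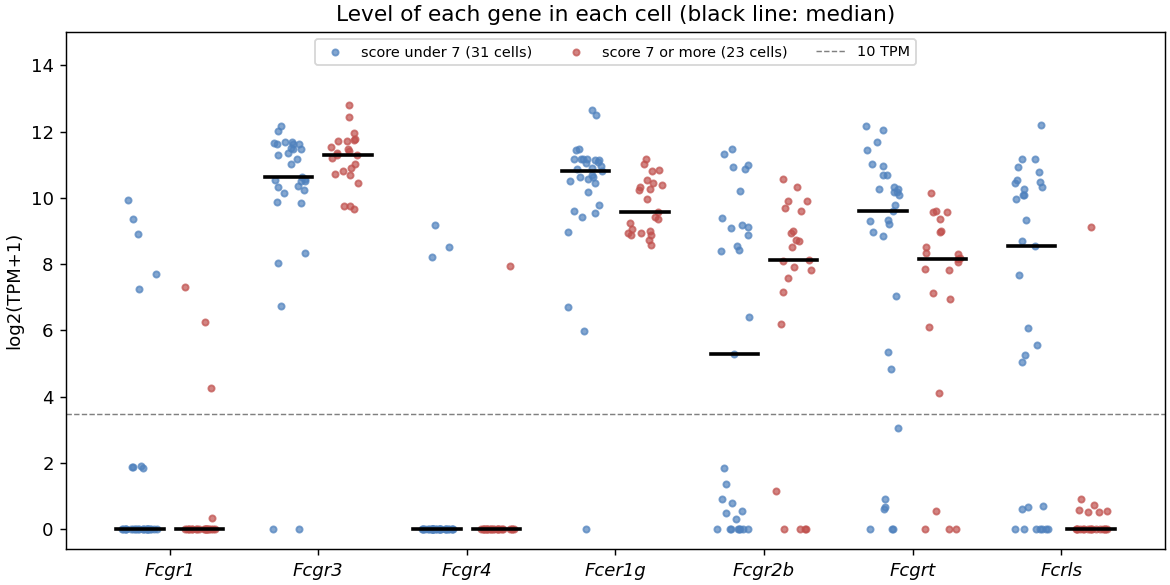
Each point is 1 cell, blue for the 31 cells with a score under 7 and red for the 23 cells at 7 or more, on log2(TPM+1). The black lines are medians and the dashed line is 10 TPM. Fcgr2b and Fcrls split into cells near 0 and cells far above 10 TPM, and Fcer1g and Fcgrt show a lower median in red.

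Against the score, Fcrls was the gene of the 7 that separated the ranges. It was present in 21 of the 31 cells under 7, or 67.7% (48.6 to 83.3%), with 0, 371 and 4732 TPM as lowest, median and highest values. Of the 23 cells at 7 or more it was present in 1, or 4.35% (0.11 to 21.9%), and the median there was 0. That 1 cell was cell 31, at 552 TPM, which lies next to the division and carries 6 alveolar macrophage markers. In the 21 cells over 9 in score, Fcrls was present in 0, which allows a share of up to 14.3%, and its highest value was 0.87 TPM. The mean log2 difference (cells at 7 or more minus cells under 7) was -5.78, from means of 0.56 ± 1.89 (SD over 23 cells) and 6.34 ± 4.65 (SD over 31 cells). It was -5.82 without Lyz2 and mitochondrial genes, and -6.16 without cells 20 and 31.

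As background, 5593 genes were at 10 TPM or more in at least 5 cells, and a mean log2 difference of 1 or more was counted as higher or lower. By that count 30.2% of these genes were higher and 7.97% lower in the cells at 7 or more, with a median difference over all of them of 0.45. Of the 7 genes 6 entered this comparison, all but Fcgr4, and of those 2 were higher (Fcgr2b and Fcgr3) and 1 was lower (Fcrls). These counts depend on few cells: without cells 24 and 44, listed at 0 for Fcgr3, Fcgr2b alone was higher, and without cells 20 and 31 Fcgr1 and Fcgrt were lower as well as Fcrls, which makes 3. The median difference of the 6 was -0.61. Fcrls ranked 10 from the bottom of the 5593, with 0.161% of them below it, but 21 of the 22 cells with Fcrls were under 7. The count of higher genes, 2 of 6, is close to the background share. A gene that reached 5 cells through 1 range alone could hardly do other than differ. The rank of Fcrls, and the counts and medians given for gene lists below, are therefore descriptions.

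Fcgr2b was present in a larger share of the cells at 7 or more, but not at a higher level where present. Those cells also had more genes at 10 TPM or more (medians of 1877 and 1413). The part of this in the share with Fcgr2b was not tested. Fcgr2b reached 10 TPM in 18 of 23 cells, or 78.3% (56.3 to 92.5%), against 16 of 31, or 51.6% (33.1 to 69.8%), and these intervals overlap. The lowest, median and highest values were 0, 281 and 1507 TPM in the 23 cells, and 0, 38.1 and 2816 TPM in the 31. Among cells in which it was present, the medians were 415 TPM and 566 TPM. All 5 cells above 1507 TPM were under 7 in score. The mean log2 difference was 1.87, from means of 6.87 ± 3.72 and 4.99 ± 4.68 (SD over cells), and it was 2.05 without Lyz2 and mitochondrial genes.

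Fcgr3 was present in all 23 cells at 7 or more, with 802, 2523 and 7128 TPM as lowest, median and highest values. In the 31 cells under 7 those values were 0, 1567 and 4614 TPM. The SD was 0.80 on the log2 scale in the 23 cells and 2.92 in the 31, or 1.24 in the 29 of them without cells 24 and 44, which are listed at 0. The mean log2 difference was 1.20, and 0.51 without those cells. Fcgr1 and Fcgr4 were too rare to compare. Fcgr1 was present in 3 of 23 and 5 of 31 cells, and of those 3, cells 20 and 31 lie next to the division. Among the 21 cells over 9 in score it was present in cell 34 alone, at 18.1 TPM. The mean log2 difference of Fcgr1 was -0.84, and -1.42 without cells 20 and 31. Fcgr4 was present in 1 of 23 and 3 of 31 cells.

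Fcer1g and Fcgrt were present in similar shares of both ranges but at lower levels in the cells at 7 or more. Fcer1g had 383, 765 and 2299 TPM as lowest, median and highest values in the 23 cells, and 0, 1793 and 6475 TPM in the 31. The median of the 31 cells was 2.34 times that of the 23, and 19 of the 23 cells lay below it. The mean log2 difference was only -0.37, or -0.18 without Lyz2 and mitochondrial genes, since cells 50, 44 and 33 pull the mean of the 31 down with 0, 62.5 and 104 TPM. With medians the log2 difference was -1.23. Fcgrt was present in 19 of 23 cells, or 82.6% (61.2 to 95.05%), and in 24 of 31, or 77.4% (58.9 to 90.4%). Where present its median was 314 TPM in the former and 1147 TPM in the latter. Of the 31 cells, 13 exceeded the highest of the 23, 1122 TPM in cell 20. The mean log2 difference of Fcgrt was -0.93, or -0.77 without Lyz2 and mitochondrial genes, and -1.22 without cells 20 and 31. It was -1.59 without cells 31, 36 and 40, the last 2 of which list Fcgrt at 0.

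Activating and inhibitory genes were then set side by side in each cell. An activating receptor and Fcgr2b were present together in 33 of 54 cells, or 61.1% (46.9 to 74.1%), and in each of those Fcer1g was present as well. An activating receptor without Fcgr2b was found in 19 cells, or 35.2% (22.7 to 49.4%). Cell 44 had Fcgr2b, at 84.0 TPM, without an activating receptor, and cell 24 had neither. In every cell with an activating receptor Fcgr3 was among those present, so Fcgr1 and Fcgr4 did not alter these counts. Cells with both numbered 18 of 23 at 7 or more and 15 of 31 under 7, or 78.3% (56.3 to 92.5%) and 48.4% (30.2 to 66.9%). Cells with an activating receptor alone numbered 5 of 23 and 14 of 31.

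Activating message exceeded inhibitory message in most cells. In the 33 cells with both, the summed TPM of Fcgr1, Fcgr3 and Fcgr4 was 3.63 times that of Fcgr2b in the median cell, and 0.362 to 40.7 times over all of them. The median ratio was 4.41 in the 18 cells at 7 or more and 2.27 in the 15 cells under 7. All 18 cells had a ratio above 1, the lowest being 1.09, whereas in 6 of the 15 Fcgr2b was the higher. Those were cells 1, 9, 18, 29, 43 and 53, of which cell 53 was furthest, with Fcgr2b at 2539 TPM and the activating sum at 919 TPM. Over all cells the balance, log2(activating sum + 1) minus log2(Fcgr2b + 1), had medians of 2.79 in the 23 cells and 3.27 in the 31, a difference of -0.48. The sign of that difference depends on the cells without Fcgr2b: in cells with both it was 0.96 in the other direction. Without cells 24 and 44 the difference over all cells was -1.81. The part of reads shared by Fcgr2b and Fcgr3 in this ratio was not tested. Spearman's rho between Fcgr2b and Fcgr3 was -0.15 over the 54 cells and -0.27 over the 31.

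**Figure D3:**
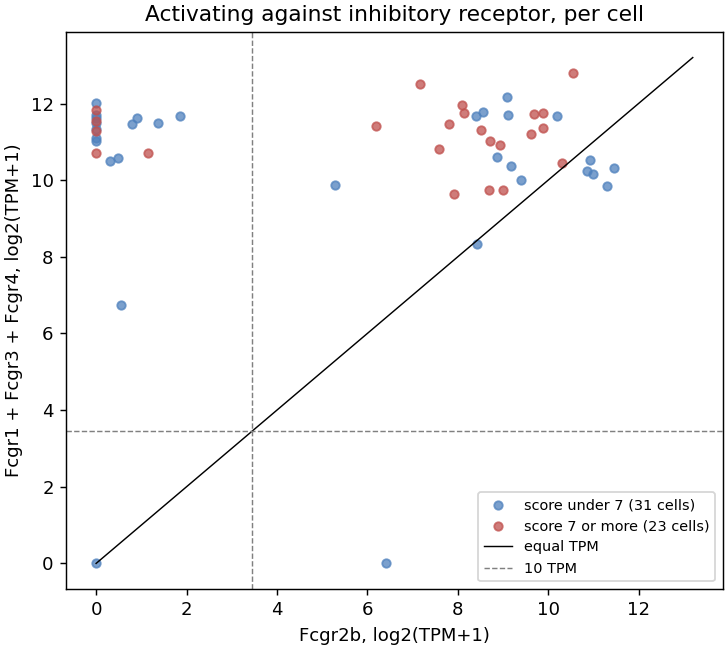
Each point is 1 cell: log2(TPM+1) of Fcgr2b on the horizontal axis and of the sum of Fcgr1, Fcgr3 and Fcgr4 on the vertical axis, blue for scores under 7 and red for 7 or more. Points above the solid line have more activating than inhibitory message. All red points lie above it, while 7 blue points lie below it, cell 44 without an activating receptor among them.

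The signalling chain relative to its receptors was compared within cells, a ratio that does not depend on what else makes up the TPM; it was chosen after the levels were seen. In cells with both at 10 TPM or more, Fcer1g was 0.426 times the activating sum in the median of 23 cells at 7 or more (0.123 to 1.17). In 28 cells under 7 the median was 0.688, with a range from 0.0253 to 61.1. Fcer1g exceeded the activating sum in 1 of 23 cells, or 4.35% (0.11 to 21.9%), and in 11 of 28, or 39.3% (21.5 to 59.4%). The highest ratio, 61.1, was that of cell 40, which carries alveolar macrophage markers.

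None of the 12 other Fc receptor and Fc receptor-like genes looked up reached 10 TPM in any cell. Fcer1a and Ms4a2, which with Fcer1g form the high-affinity IgE receptor, were at 0 in all cells, as were Pigr (the transport receptor for polymeric IgA and IgM), Fcmr (an IgM receptor, listed as Faim3) and Trim21, a cytosolic antibody receptor. Among genes for immunoglobulin chains, the IgG heavy chain genes Ighg1, Ighg2b and Ighg3 were at 0 in all cells and Ighg2c was present in 1. Ighm was present in 21 of 31 cells under 7 and 1 of 23 at 7 or more, with Cd79a and Cd79b at 0 in all cells. Of the 21 cells under 7 with Fcrls, 15 had Ighm, and of the 10 without it, 6 did.

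Of 6 other receptors that share the Fcer1g chain with the Fc receptors, 5 reached 10 TPM in some cell. Clec4d and Clec4e, C-type lectins for mycobacterial glycolipids, were present in 19 and 17 of 23 cells and in 0 and 2 of 31. Clec4n, the fungal receptor dectin-2, was present in 0 of 23 and 11 of 31 cells, and Lilra5, an activating leukocyte receptor, in 0 and 7. The mean log2 differences were 7.69 for Clec4d, 6.0 for Clec4e and -3.44 for Clec4n, on either side of the -0.37 of Fcer1g itself. All 5 were tested, of which 2 were higher and 2 lower (background 30.2% and 7.97%). Clec4d, Clec4n and Lilra5 were present in 1 range alone, so they could hardly do other than differ.

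Of 17 activating genes 16 were tested, of which 6 were higher and 0 lower in the cells at 7 or more (background 30.2% and 7.97%), with a median difference of 0.42 against 0.45 over all genes tested. Tyrobp, the sister adaptor of Fcer1g, was present in 23 of 23 and 26 of 31 cells with medians of 2639 and 872 TPM, a mean log2 difference of 2.78. Rac1 and Rac2, GTPases that drive phagocytic uptake, differed by 1.90 and 1.78. Syk, the kinase that docks on the ITAM, was present in 13 of 54 cells, 7 of 23 and 6 of 31. Lyn, a kinase that phosphorylates both motifs, was present in 16 of 23 and 16 of 31.

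Of 9 inhibitory signalling genes 7 were tested, 2 were higher and 1 was lower (background 30.2% and 7.97%). The median difference was 0.19, against 0.45 over all genes tested. Inpp5d, the lipid phosphatase SHIP1 that the Fcgr2b ITIM recruits, was present in 6 of 23 cells at 7 or more and 13 of 31 under 7 (difference -1.20), opposite in direction to Fcgr2b. Ptpn6, the phosphatase SHP1, and Dok2, an adaptor that restrains kinase signalling, were higher by 2.41 and 3.43. All 8 other inhibitory receptors reached 10 TPM in some cell. Of these, 7 were tested, 2 were higher and 3 were lower, with a median difference of -0.65. Pirb and Cd300a were the higher ones, at 1.76 and 1.26. Clec12a, Clec4a2 and Sirpa (a receptor for the self signal CD47) were lower, with differences of -4.58, -4.18 and -2.67. Clec12a was present in 0 of 23 and 16 of 31 cells.

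B2m, the partner of Fcgrt, was present in all 54 cells with medians of 2936 TPM at 7 or more and 4842 TPM under 7, a difference of -0.41. Of the 5 genes of B2m and endosome recycling 4 were tested, 1 was higher and 0 were lower, and the median was 0.14. The higher one was Rab11a, a GTPase of recycling endosomes, at 3.39. Of 11 genes of cytokine and complement pathways known to regulate Fc receptors, all 11 were tested, 1 was higher (Stat6, 1.73), 4 were lower and the median was -0.45. Il10ra, the interleukin 10 receptor, was lower by 3.01 and Ifngr1, the interferon gamma receptor, by 1.13. Of 5 reference genes 1 was higher, Gapdh at 3.15, 0 were lower and the median was 0.13. Over all genes tested, 30.2% were higher and 7.97% lower, with a median of 0.45. The mean log2 level of 6 MHC class II genes had medians of 1.94 in the cells at 7 or more and 12.15 in those under 7. It ran from 0.00 to 8.66 in the former and from 1.08 to 13.8 in the latter, and all 6 genes were lower.

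Of 10 genes that Fcrls shares with microglia, 9 reached 10 TPM in some cell. Gpr34, a lysophospholipid receptor, was present in 0 of 23 and 12 of 31 cells (difference -3.54), Cx3cr1, the fractalkine receptor, in 1 and 10 (-2.57) and Trem2, a lipid receptor, in 4 and 8 (-0.81). Sall1, a transcription factor of microglia, was at 0 in all cells. Within the 31 cells under 7, 9 of the 21 with Fcrls had Gpr34 and 8 had Cx3cr1, against 3 and 2 of the 10 without. H2-Ab1, an MHC class II gene, was present in 17 of the 21 and 7 of the 10. Cd163 and Inpp5d were present in 10 and 11 of the 21 and in 1 and 2 of the 10. These 2 were picked from a longer set of genes after the values were seen. Of the same set, Mrc1 was present in 17 of the 21 and 7 of the 10, Folr2 in 8 and 3, and Lyve1 in 5 and 2.

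**Figure D4:**
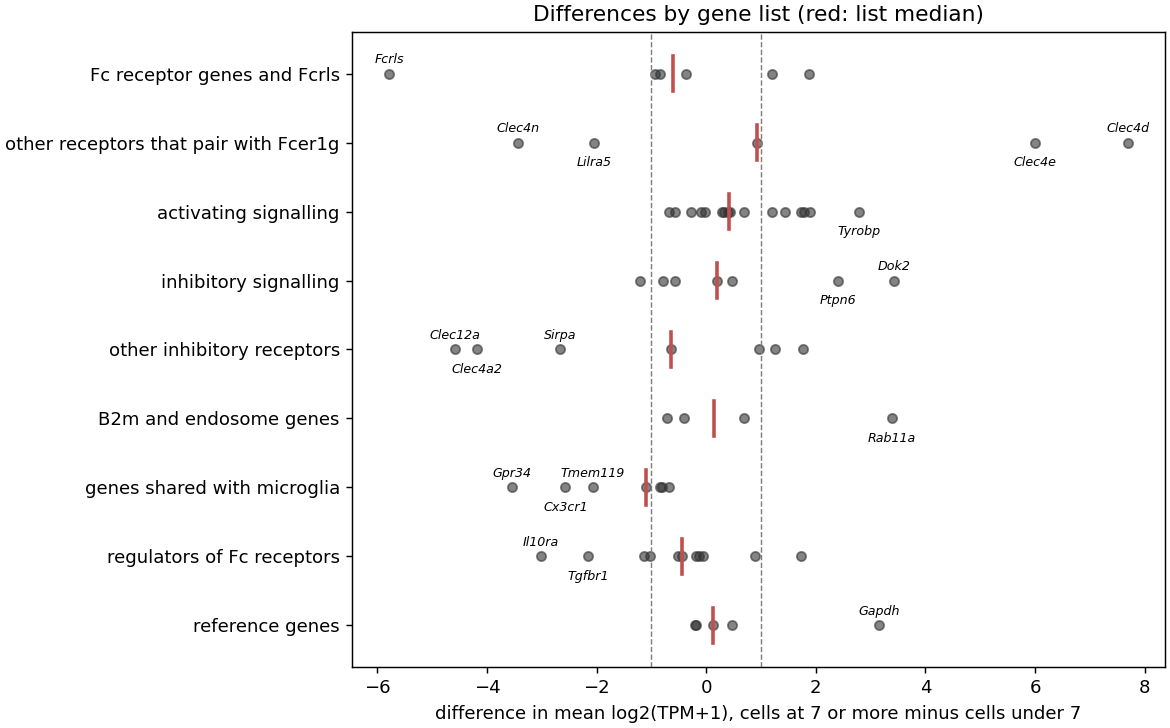
Difference in mean log2(TPM+1), cells at 7 or more minus cells under 7, of each tested gene (grey points) by list, with list medians in red and dashed lines at -1 and 1. Genes at 2 or more from 0 are named. Fcrls lies at -5.78, and the receptors that pair with Fcer1g spread from -3.44 to 7.69.

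Within the cells under 7, the 7 genes were only weakly related to one another. Over these 31 cells, rho between pairs lay between -0.30 (Fcer1g and Fcgrt) and 0.29 (Fcgr1 and Fcgr4). Fcgr3 and Fcer1g rose together in the other range, with the highest rho of 0.57 in the 23 cells at 7 or more and 0.53 in the 21 over 9. Fcgr1 and Fcgr4 were at 0 in 41 and 50 of the 54 cells, so a low rho says little about them. Over all 54 cells, which carry the difference between ranges and share 1 set of libraries, the genes most like each were sought among 2943 genes present in at least 10 cells. For Fcrls they were Mgl2, a C-type lectin (rho 0.71), Anxa5, annexin A5 (0.68), and Malat1 (0.62). For Fcgrt they were Sepp1, the plasma selenoprotein (0.61), Sdc4 (0.60) and Apoe (0.55), and for Fcer1g the actin cytoskeleton genes Tmsb4x (0.55), Actb (0.44) and Pfn1 (0.43). For Fcgr3 they were Man2b1, a lysosomal mannosidase (0.51), Cybb, the NADPH oxidase subunit (0.47), and H2-Q10 (0.44), which is uncertain because class I genes are near copies of one another. For Fcgr2b they were Vdac3 (0.50), B4galt5 (0.48) and Trim30a (0.45).

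Within the 31 cells under 7 alone, the order changed. Sepp1 stayed among the first 3 for Fcgrt (0.58), after Glul, glutamine synthetase (0.67), and before Pnisr (0.57). Vdac3 and B4galt5 were again among the first 3 for Fcgr2b, at 0.61 and 0.66, with Stub1 at 0.62. Vdac3 and B4galt5 each reached 10 TPM in 7 of the 31 cells, and Stub1 in 6. For Fcrls the first 3 were Csk (0.60), Sdf2 (0.60) and Sord (0.59), none of which led over all cells. For Fcgr3 they were Rnf13 (0.65), Clk3 (0.59) and Snx6 (0.58), and for Fcer1g S100a13, Trappc6a and Rpl37 (0.56, 0.56 and 0.55). The limit of 10 cells was applied over all cells and not within the 31. There, Sord and Clk3 reached 10 TPM in 5 cells, Csk in 6 and Trappc6a in 8. Apart from these and the genes given for Fcgr2b, the genes listed did so in 10 to 27. For a gene in 8 cells or fewer, rho rests largely on values under 10 TPM. The 31 cells are part of the whole set, so a gene that leads in both is not an independent repeat. These rho are the highest of many values and describe these cells alone.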

How the data were processed

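The authors deposited 1 table of TPM per cell, with totals of 997509 to 1e+06, and the submitters' processing notes name RSEM without a version. Which aligner, build and annotation were used is not given in the sources used here. RSEM divides reads that match several genes, so Fcgr2b and Fcgr3 values may borrow from each other. Levels were taken as log2(TPM + 1), which understates differences of low genes. Shares carry 95% exact (Clopper-Pearson) intervals, and a share of 0 the limit set by 3 counts. One gene of a list is not reported here. Of 175 list genes, 4 were found under older symbols in RefSeq GRCm38.p6. The named genes are the 7 members, up to 3 genes a list with the largest difference among those at 10 TPM or more in at least 10 cells, list receptors and kinases by count, and the 3 genes most like each member. Members and lists were chosen with earlier results of these data known. The calculation of differences was checked on shuffled values with known shifts added, and that of rho on random numbers. These checks cover the arithmetic alone. Python 3.11.15, pandas 2.3.3 and scipy 1.17.1 were used.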

Additional observations from a re-analysis of the deposited data

How the results depend on the processing

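No paired analysis was possible because the labels put every cell in 1 group and name no pairs. Of 207 values under alternatives, 157 stayed within 1.5 times (or 0.2 on the log2 scale) or within their interval, on the same side of 1; the cause of the others was not tested except where named. Counting every value above 0 as present raised the share with Fcgr2b to 77.8% and with Fcrls to 57.4%, since low values are then counted. A pseudocount of 10 gave differences of -0.53 for Fcgr1, 0.98 for Fcgr3, 1.13 for Fcgr2b and -3.81 for Fcrls, leaving 1 gene counted as higher, and one of 0.1 gave -1.26 for Fcgr1, with 2 genes lower. A division at 8 gave -1.73 for Fcgr1 and -1.35 for Fcgrt, with 3 genes lower. Fcgr1, Fcgrt and the count of lower genes were -1.32, -1.65 and 3 with Prg4 left out of the score, -1.40, -1.29 and 3 with Alox15 left out, and -1.24, -1.16 and 3 with Fn1 left out. Without Prg4 Fcgr3 was 0.94, with 1 gene higher; the balance difference was -2.29 without Alox15 and -0.23 without Fn1. In cells with at least 2000 genes above 0, Fcgr3 was 0.72 and Fcgr4 0.039, with 1 gene higher. Without the 3 cells holding 3 or more markers of another type, Fcgr1 was -1.25 and Fcgrt -1.59, with 3 genes lower. Medians in place of means gave 0.00 for Fcgr1 and Fcgr4, 0.69 for Fcgr3, -1.23 for Fcer1g, 2.85 for Fcgr2b and -1.43 for Fcgrt, and means in place of medians a balance difference of -0.79. Chosen after seeing the data, leaving out cells 20 and 31 gave -1.42 for Fcgr1 and -1.22 for Fcgrt, with 3 genes lower. Leaving out cells 24 and 44 gave 0.51 for Fcgr3, with 1 gene higher, a share with Fcgr3 of 100% and a balance difference of -1.81. Leaving out the 4 cells from 2 to 9 gave -1.53, -1.56 and 3, and a balance difference of -1.81, and cells with both receptors a balance difference of 0.96. Fcrls stayed lower under all 15 alternatives, from -8.54 to -3.81, and Fcgr2b higher, from 1.13 to 2.85. A division at 6, included in these and in the 207 values, changed the side of 0 cells and so repeated the main values.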
